A study of Saccharomyces cerevisiae with 16 samples.

Results

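The transcriptome of budding yeast lacking ATG18 was compared with that of its wild-type parent, using the 4 atg18∆ libraries and wild-type replicates 1, 2 and 4. These are 7 of the 16 libraries of a series that also holds 4 fab1∆ and 4 vph1∆ libraries. Wild-type replicate 3 was left out because it stood apart: its 10 most abundant genes took 31.2% of all transcripts, against 14.4% to 15.9% in the other 15 libraries. The study's methods state that a wild-type sample was removed for poor RNA quality but do not give its number. Both strains were haploid descendants of the DHY211 parental line. Both carried SAL1+ and HAP1+, together with CAT5(91M), MIP1(661T) and MKT1(30G), and in addition RME1(INS-308A) and TAO3(1493Q). The mutant differed by replacement of ATG18 with the NatMX drug-resistance cassette. Cultures grew at room temperature in SDC, a synthetic dextrose medium with amino acids, and were harvested at an OD600 of 0.05. Duplicate cultures were grown on each of 2 days, and the labels do not say which replicates shared a day. Transcript levels are in TPM, an abundance scaled by transcript length and by the library total, and all tests below were run on log2(TPM + 1) over the 6357 genes with a mean of at least 1 TPM.

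Atg18 is a PROPPIN, a β-propeller protein that binds the phosphoinositides PI3P and PI(3,5)P2. With Atg2 it acts in the expansion of the autophagosome. At the vacuole it takes part in membrane fission and restrains the Fab1 complex, the kinase that makes PI(3,5)P2, so that cells without Atg18 hold more of this lipid. The comparison asks what the loss of this regulator does to transcripts during growth in a medium with amino acids.

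The deleted gene was nearly absent from the mutant. ATG18 (YFR021W, sacCer3 chromosome VI, 194812 to 196314, plus strand) was at 10.5, 9.83 and 9.05 TPM in wild-type replicates 1, 2 and 4, and at 0.0106, 0, 0 and 0 TPM in the atg18∆ replicates. The groups did not overlap, and the log2 difference was -3.43 ± 0.08 (standard error; limma with Benjamini-Hochberg adjustment, adjusted p = 9.33e-07). A two-sided exact permutation test of mean TPM gave p = 0.0286, the smallest value that 4 against 3 libraries allow. The flanking genes did not pass the test. CSS2, the neighbour on one side, had a mean of 13.9 TPM in wild type and 15.4 TPM in atg18∆ (adjusted p = 0.952 in limma). ROG3 on the other side, which encodes an arrestin-related adaptor, had a mean log2 difference of -0.11 (adjusted p = 0.952).

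Beyond ATG18, the mutant differed little from wild type. At an adjusted p under 0.05, the threshold for a call throughout, 4 genes were called, or 0.0629% of those tested. ARG1, PRM5 and YFL067W rose (0.0472%), and ATG18 fell (0.0157%). A further view at an unadjusted p under 0.05 held 308 genes, or 4.85%. The log2 difference lay within 0.25 of zero for 96.1% of genes and its median over all genes was 0.05. It was above zero for 73.8% of genes, a share that fell to 43.3% when each library was scaled to the same median and to 50.3% after quantile normalization. Fitted together in 15 libraries, atg18∆ differed from wild type at 6 genes, fab1∆ at 2679 genes (42.1%) and vph1∆ at 929 genes (14.6%). All mutants were set against the same wild-type libraries there.

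**Figure D1:**
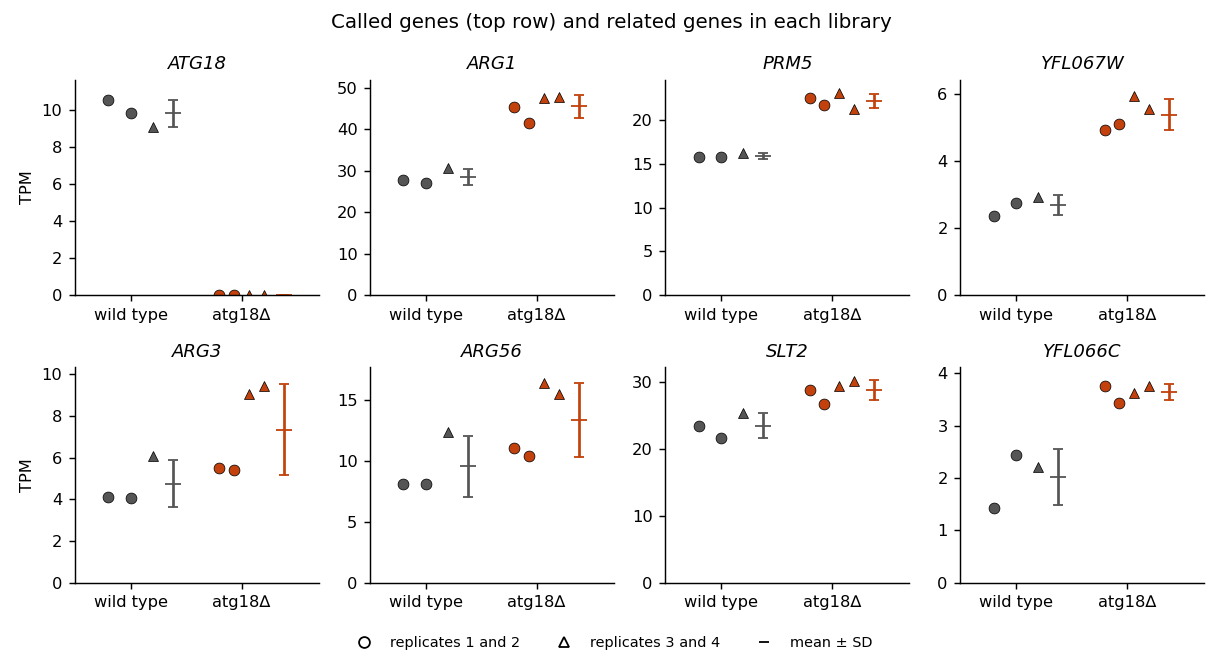
TPM of each library for the called genes ATG18, ARG1, PRM5 and YFL067W (top row) and for ARG3, ARG56, SLT2 and YFL066C, which were not called. Circles are replicates 1 and 2, triangles replicates 3 and 4, and bars the mean ± SD. For ARG1, the 4 atg18∆ libraries sit between 41.6 and 47.8 TPM, all above the wild-type libraries.

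ARG1 encodes argininosuccinate synthetase, which joins citrulline to aspartate in the cytoplasmic part of arginine synthesis. It (YOL058W, chromosome XV, 219211 to 220473, plus strand) was at 27.8, 27.0 and 30.8 TPM in wild type and at 45.4, 41.6, 47.5 and 47.8 TPM in atg18∆. The lowest mutant library was thus above the highest wild-type library. The mean rose 1.6-fold, from 28.5 ± 2.02 TPM (SD, n = 3) to 45.6 ± 2.88 TPM (SD, n = 4). In limma the log2 difference was 0.66 ± 0.07 (adjusted p = 0.0426), and the exact permutation test gave its smallest possible p, 0.0286. The latter restates the lack of overlap. ARG1 was examined because the study had reported its rise from the same experiment, so neither p is separate support for that report. The rise was of similar size in the 2 sets of replicates, 1.59-fold in replicates 1 and 2 and 1.55-fold in replicates 3 and 4. The call did not withstand the removal of most single libraries. The adjusted p was 0.0468 without atg18∆ replicate 2 and lay between 0.0523 and 0.404 without any of the other 6, while the log2 difference stayed between 0.62 and 0.71. With wild-type replicate 3, which held 12.5 TPM, the adjusted p was 0.509.

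Transcription of the arginine genes is known to be induced by Gcn4, the activator of amino acid synthesis, and repressed by the ArgR/Mcm1 complex when arginine is plentiful. The regions from 300 to 151 bases before the start codons of ARG1 and ARG56 are shown because these genes bear on the arginine result. ARG56 encodes the precursor of acetylglutamate kinase and acetylglutamyl-phosphate reductase. Capitals mark TGACTC, the core of the Gcn4 binding sequence, searched on both strands. The sequences are from the RefSeq R64 assembly (sacCer3) and read 5′ to 3′ on the coding strand, which is the plus strand for both genes.
ARG1 (chrXV:218911-219060, plus strand): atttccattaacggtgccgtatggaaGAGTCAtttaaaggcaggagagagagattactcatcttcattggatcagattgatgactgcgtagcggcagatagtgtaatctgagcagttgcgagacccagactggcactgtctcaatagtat
ARG56 (chrV:295110-295259, plus strand): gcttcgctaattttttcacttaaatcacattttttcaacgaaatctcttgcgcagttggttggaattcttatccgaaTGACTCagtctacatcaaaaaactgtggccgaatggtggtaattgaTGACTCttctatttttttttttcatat
The ARG1 window held 1 match, on the minus strand, beginning 274 bases before the start codon, and the ARG56 window held 2, beginning at 223 and 177 bases. At least 1 match was present in the windows of 7 of the 10 arginine genes examined. Over 5953 protein-coding genes, 4.7% of windows of this length held the sequence.

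The other arginine genes were not called. The gene lists used here and below were drawn up with earlier results of these data known, so their shares are descriptive. Of 10 genes of the pathway, 1 was called, 9 had a log2 difference above zero, and the median was 0.16, against 0.05 over all genes. All mutant libraries lay above all wild-type libraries for 2 of the 10 (ARG1 and CPA1), where 5.1% of all genes did so. ARG3 encodes ornithine carbamoyltransferase, which supplies the citrulline that Arg1 uses. It was at 4.13, 4.06 and 6.06 TPM in wild-type replicates 1, 2 and 4 and at 5.48, 5.40, 9.06 and 9.40 TPM in atg18∆ replicates 1 to 4. The groups overlapped, because wild-type replicate 4 exceeded atg18∆ replicates 1 and 2. Its log2 difference was 0.52 ± 0.22 (limma adjusted p = 0.952; exact permutation p = 0.171). ARG56 was at 8.08, 8.14 and 12.4 TPM in wild type and 11.02, 10.4, 16.3 and 15.5 TPM in the mutant. For both genes, each mutant library exceeded the wild-type libraries of its own set of replicates. When a term for the 2 sets of replicates was added to the fit, ARG3 (log2 difference 0.42, adjusted p = 0.0277) and ARG56 (0.35, adjusted p = 0.0211) were called beside ARG1 (0.63, adjusted p = 0.000887). With the replicate number as a block, ARG3 and ARG56 were not called (adjusted p = 0.181 and 0.16), and ARG1 was (adjusted p = 0.0273).

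The other steps described here were not called with or without this term. CPA1, the small subunit of carbamoyl-phosphate synthetase, was at 64.9, 64.8 and 67.3 TPM in wild type and 67.8, 67.8, 82.6 and 81.8 TPM in atg18∆, so that its groups did not overlap. Argininosuccinate lyase, ARG4, acts directly after Arg1 and had a log2 difference of 0.13 ± 0.07 (limma adjusted p = 0.952). The mitochondrial steps ARG2, ARG7 and ARG8 had log2 differences of -0.01, 0.10 and 0.22. ORT1, which exports ornithine from the mitochondrion, had 0.02. The 7 genes of arginine and proline breakdown held 0 calls in limma and 0 genes at an unadjusted p under 0.05, with a median of 0.02.

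ARG1 also rose in both other mutants, by 0.84 in fab1∆ (adjusted p = 9.14e-07 in limma) and 2.32 in vph1∆ (adjusted p = 7.04e-11). It was at 47.6 to 56.2 TPM in fab1∆ and at 134 to 159 TPM in vph1∆. In the fit of 15 libraries, atg18∆ was below vph1∆ by a log2 difference of -1.66 (adjusted p = 1.82e-09) and below fab1∆ by -0.18 (adjusted p = 0.0487). ARG3 placed the mutants in another order, with atg18∆ above fab1∆ by 0.74 (adjusted p = 0.00565) and below vph1∆ by -1.82 (adjusted p = 2.39e-05). ARG8, acetylornithine aminotransferase, did likewise, with differences of 0.41 (adjusted p = 0.0207) and -0.52 (adjusted p = 0.0191).

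PRM5 was the second gene that rose. It encodes a membrane protein whose transcription is induced by pheromone and by the cell wall integrity pathway, in which the kinase Slt2 activates the factor Rlm1. PRM5 (YIL117C, chromosome IX, 140613 to 141569, minus strand) was at 15.7, 15.7 and 16.3 TPM in wild type and at 22.5, 21.7, 23.0 and 21.3 TPM in atg18∆. The groups did not overlap, and the change was 1.39-fold, with a log2 difference of 0.45 ± 0.05 (limma adjusted p = 0.0498). The exact permutation test gave p = 0.0286, its smallest possible value. PRM5 was named for its call and its lack of overlap, so that p is not separate support. The call was at the edge of the threshold. With the replicate number as a block the adjusted p was 0.112, and it lay between 0.168 and 0.56 with any single library left out, while the log2 difference stayed between 0.43 and 0.47. PRM5 was higher still in the other mutants, at 52.7 to 60.6 TPM in fab1∆ and 27.2 to 33.7 TPM in vph1∆. The differences of atg18∆ from them were -1.33 (adjusted p = 1.34e-09) and -0.44 (adjusted p = 0.00024).

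Of 18 cell wall integrity genes, PRM5 was the 1 that was called. For 7 of them, or 38.9%, every atg18∆ library was above every wild-type library, against 5.1% of all genes, and the median log2 difference was 0.16. SLT2 itself, the pathway's MAP kinase, was at 23.4, 21.7 and 25.4 TPM in wild type and 28.8, 26.8, 29.4 and 30.2 TPM in atg18∆ (log2 difference 0.28, limma adjusted p = 0.734). CIS3, a mannoprotein of the cell wall, went from a mean of 669 to 729.5 TPM, with no overlap. KDX1, a pseudokinase relative of Slt2 and a target of Rlm1, had a log2 difference of 0.41 but its groups overlapped. In fab1∆ both SLT2 and KDX1 rose relative to wild type (1.09 and 1.41), and atg18∆ was below fab1∆ at both (-0.81 and -0.998, adjusted p = 5.87e-08 and 0.000107).

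YFL067W lies at the left end of chromosome VI (836 to 1363, plus strand), next to the telomere, and encodes a protein of unknown function. It was at 2.37, 2.77 and 2.94 TPM in wild type and 4.95, 5.11, 5.95 and 5.58 TPM in atg18∆, a 2-fold change without overlap (log2 difference 0.79 ± 0.09, limma adjusted p = 0.0498). It is below the mean of 10 TPM required of named genes and was chosen after its value was seen. YFL066C, its neighbour (1437 to 2615, minus strand), was at 1.42, 2.44 and 2.21 TPM in wild type and 3.76, 3.42, 3.63 and 3.75 TPM in the mutant, without overlap but not called (adjusted p = 0.611). Both genes are repeated elsewhere in the genome: 83.9% of the 31-base words of YFL067W and 99.3% of those of YFL066C recur, so that reads from other chromosome ends can count here. The next tested genes inward on the arm, DDI3 and SNO3, were not called (log2 differences of 0.18 and -0.20, adjusted p = 0.952 for both). YFL067W was above wild type in the other mutants too, and atg18∆ did not differ detectably from fab1∆ (-0.15 ± 0.12) or vph1∆ (0.03 ± 0.12). Without any single library the adjusted p of YFL067W lay between 0.107 and 0.462.

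**Figure D2:**
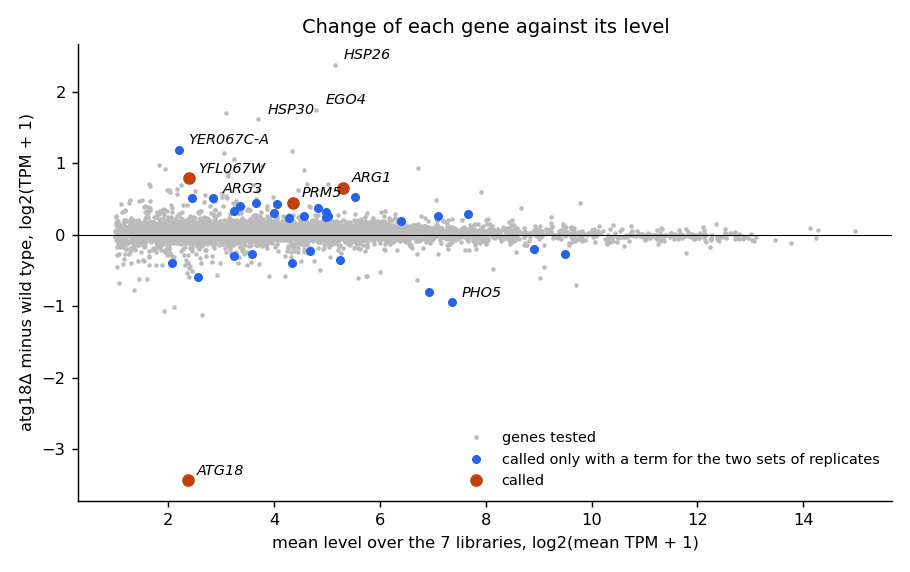
Log2 difference of atg18∆ minus wild type for each of the 6357 genes, against its level over the 7 libraries. Orange points are the 4 called genes and blue points the genes called only with a term for the 2 sets of replicates; ATG18 lies at -3.43 and HSP26, which was not called, at 2.38.

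The genes ranked next after the called ones did not pass the test. The ranking took genes without overlap, with the same direction in both sets of replicates and with at least 10 TPM in the higher strain. Among these, the smallest p-values for higher levels in atg18∆ belonged to MTC7, snR75, YBR032W, SRL3 and LAC1, followed by YGL193C, TAL1, ATF2, ERG26 and PCL5. Their log2 differences lay between 0.17 for MTC7 and 0.41 for YBR032W. TAL1, the transaldolase of the pentose phosphate pathway, went from a mean of 320.6 to 362.6 TPM. The nitrogen-responsive cyclin PCL5, which directs the kinase Pho85 to degrade Gcn4, was at 39.6, 41.8 and 38.3 TPM in wild type and 45.1, 46.9, 50.5 and 54.1 TPM in atg18∆ (log2 difference 0.29, limma adjusted p = 0.734). In the direction of lower levels, the ranking held the histone genes HHF1, HTB1 and HHT1, the ATP synthase subunit gene ATP15, the cell wall mannoprotein gene TIR3, and NCE102, whose product organises eisosomes. It also held AIM34, snR58, YLR112W, RPS21A, YNL103W-A and YMR242W-A. NCE102 was at 789, 763 and 832 TPM in wild type and 597, 631, 731 and 695 TPM in the mutant (log2 difference -0.26, adjusted p = 0.734).

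The machinery in which Atg18 acts held no called gene other than ATG18 itself. Over all genes 0.0629% were called and 4.85% had an unadjusted p under 0.05. Counts of 0 or 1 in lists of this size are thus near those shares and do not set this machinery apart. Of 12 genes for the enzymes of PI3P and PI(3,5)P2 and the related PROPPINs, limma called 0, and 0 reached an unadjusted p under 0.05 or were free of overlap. FAB1 had a mean log2 difference of -0.04, and its activator VAC14 had 0.13. The PROPPIN genes ATG21 and HSV2 had 0.05 each. Of 31 autophagy genes, 0 were called, 0 had an unadjusted p under 0.05 and the median was 0.03. ATG8, whose product coats the growing autophagosome, was at 8.36, 6.50 and 8.55 TPM in wild type and 8.27, 8.86, 10.9 and 11.5 TPM in atg18∆, with overlap. At ATG8 the log2 difference of atg18∆ from fab1∆ was -1.30 (adjusted p = 2.7e-07). The 20 subunit and assembly genes of the v-ATPase, the proton pump of the vacuole, held 0 calls, 1 gene at an unadjusted p under 0.05 and a median of 0.04. That gene, VMA3, encodes the proteolipid of the membrane ring and went from a mean of 783 to 837 TPM. TORC1 and its regulators (24 genes) held 0 calls with a median of 0.04, and vacuolar hydrolases (16 genes) 0 calls with a median of 0.04. Each of these 2 lists had 1 gene at an unadjusted p under 0.05.

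Some groups without a called gene in limma had a share above zero higher than the 73.8% of all genes, a difference that was not tested. All 25 ergosterol synthesis genes had a log2 difference above zero, 8 were free of overlap (32%, against 5.1% of all genes), 11 had an unadjusted p under 0.05 (4.85% of all genes did), and their median was 0.11. ERG26, a C-3 sterol dehydrogenase, was at 65.4, 65.9 and 72.9 TPM in wild type and 79.9, 77.2, 79.5 and 77.8 TPM in the mutant. After median scaling 96% of the ergosterol genes remained above zero with a median of 0.06. Of 60 ribosome biogenesis genes, 98.3% were above zero with a median of 0.08 and 0 calls. Only 2 of the 60 had an unadjusted p under 0.05 and 3.33% were free of overlap in the higher direction, against 4.85% and 5.1% of all genes. After median scaling 68.3% of them were above zero, against 43.3% of all genes. The shares after quantile normalization were 88.3% and 50.3%. All 12 genes of the zinc regulon were above zero, with a median of 0.20 and 2 genes at an unadjusted p under 0.05. After median scaling 91.7% of them were.

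Groups with lower levels in atg18∆ included the histones and the respiratory chain. All 10 core histone genes (with the H2A variant and linker histone genes counted) had a log2 difference below zero, with a median of -0.07. For 5 of them every mutant library was below every wild-type library (50%, against 1.35% of all genes), and the same number had an unadjusted p under 0.05, with 0 called by limma. HHF1, a histone H4 gene, was at 1661, 1659.9 and 1649.8 TPM in wild type and 1497, 1452, 1546 and 1477 TPM in atg18∆. HHF1 and HHF2 encode the same protein, and 40.8% of the 31-base words of each recur in the genome. After quantile normalization 20% of the histone genes were above zero and the median was -0.07. Of 44 nuclear genes of the respiratory chain and ATP synthase, 2.27% were above zero under no scaling, median scaling and quantile normalization alike. Their median was -0.06, 5 genes were free of overlap in the lower direction (11.4%, against 1.35%), and limma called 0 with 5 at an unadjusted p under 0.05. COX7, a subunit of cytochrome c oxidase, went from a mean of 799 to 726 TPM. The 138 cytosolic ribosomal protein genes had a median of -0.01 and 0 calls in limma, with 7 genes at an unadjusted p under 0.05. Of them 31.2% were above zero, against 73.8% of all genes. Free of overlap were 6.52% in the lower direction (1.35% of all genes) and 1.45% in the higher (5.1%). Their median was -0.07 after median scaling, with 2.9% above zero (43.3% of all genes). After quantile normalization it was 0.00, with 52.2% above zero (50.3% of all genes), so that their direction depended on the scaling.

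**Figure D3:**
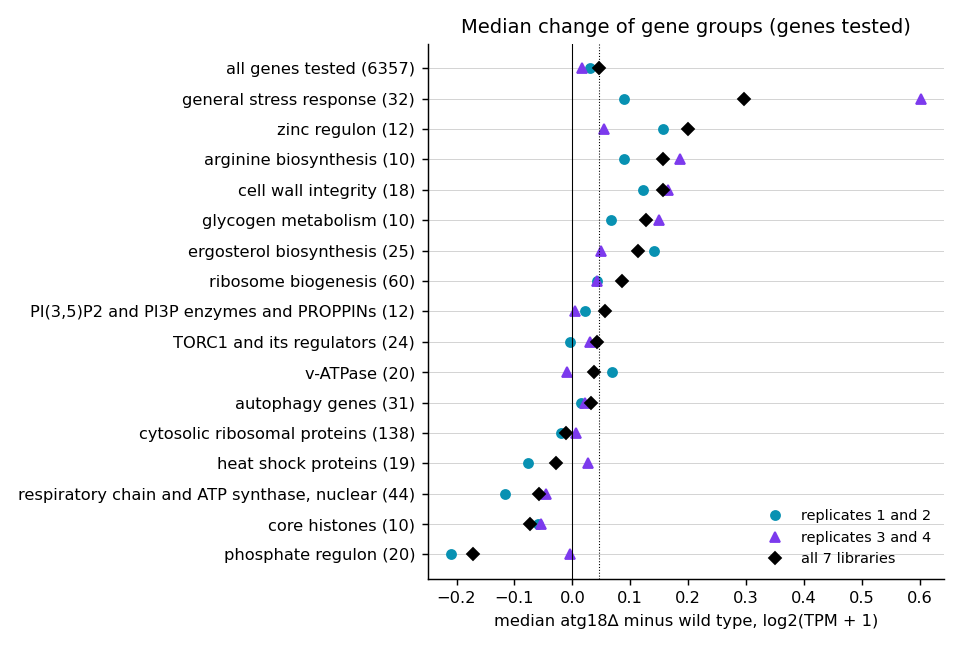
Median log2 difference of atg18∆ minus wild type in 16 gene groups and in all genes tested, over the 7 libraries (diamonds), in replicates 1 and 2 (circles) and in replicates 3 and 4 (triangles). The dotted line marks the median of all genes, 0.05; the general stress response reached 0.60 in replicates 3 and 4 and 0.09 in replicates 1 and 2.

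The replicates fell into 2 sets in both strains, and this separation was larger than that between the strains. The first principal component, with 60.1% of the variance, placed replicates 1 and 2 of both strains at one end and wild-type replicate 4 with atg18∆ replicates 3 and 4 at the other. The second, with 14.4%, separated wild type from atg18∆. The median absolute log2 difference between the sets was 0.15 in either strain, against 0.06 for atg18∆ minus wild type. Whether the sets are the 2 culture days is not stated in the labels. With a term for the sets in the fit, 33 genes were called (0.519%), 21 higher (0.33%) and 12 lower (0.189%), and among them were the 4 called without it. All 33 changed in the same direction in both sets, as did 3786 of the 6357 genes tested. A fit with this term favours genes that change alike in both sets, so their agreement is not separate support. The count of 33 fell to between 5 and 10 without any single library other than wild-type replicate 4, and was 65 without that replicate. With wild-type replicate 3 added, 1 gene was called with the term, and 1 (0.0158%) without it.

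With the replicate number as a block instead, 4 genes were called (0.0629%), namely ATG18, ARG1, YFL067W and PHO5. The genes from DIP5 to YER067C-A below were called with the term for the sets and not with the block (adjusted p of 0.16 to 0.211). DIP5, a permease for glutamate and aspartate, was at 21.5, 22.1 and 25.8 TPM in wild type and 28.4, 26.6, 34.1 and 33.1 TPM in atg18∆ (log2 difference 0.34 with the term, limma adjusted p = 0.0183). The fatty acid synthase subunit gene FAS2 (0.23, adjusted p = 0.0211), the fatty acid desaturase gene OLE1 (0.25, adjusted p = 0.0216) and ERG27 of ergosterol synthesis (0.21, adjusted p = 0.0499) rose. So did GPH1, glycogen phosphorylase (0.54, adjusted p = 0.0292), PGM2, phosphoglucomutase (0.36, adjusted p = 0.0353), and BAT2, the cytosolic branched-chain aminotransferase (0.27, adjusted p = 0.0372). The silencing deacetylase gene SIR2 fell by 0.32 and INH1, the inhibitor of the ATP synthase in reverse, fell by 0.21. YER067C-A, which by its name lies on the opposite strand of RGI1, rose from 1.54 to 1.77 TPM in wild type to 3.81 to 6.71 TPM in atg18∆ (1.14, adjusted p = 0.0183). Whether counting used strand is not stated, so its reads and those of RGI1, a gene of respiratory growth, cannot be told apart.

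Among the phosphate-responsive genes, PHO5 and PHO12 were called lower with the same term. The acid phosphatase gene PHO5, a classic target of the activator Pho4, was at 302 and 292 TPM in wild-type replicates 1 and 2 but at 65.9 TPM in replicate 4. In atg18∆ it was at 213 and 192 TPM in replicates 1 and 2 and at 43.3 and 42.7 TPM in replicates 3 and 4. The strains overlapped as wholes, and within each set of replicates atg18∆ was the lower. Without a term for the sets PHO5 was not called (log2 difference -0.94 ± 0.77, adjusted p = 0.952), whereas with it the difference was -0.57 (adjusted p = 0.00168), and with the replicate number as a block -0.57 (adjusted p = 0.0313). The window before PHO5 is shown for its Pho4 core sequence CACGTG, in capitals, which begins 253 bases before the start codon. Over all windows of this length, 2.55% held it.
PHO5 (chrII:431102-431251, minus strand): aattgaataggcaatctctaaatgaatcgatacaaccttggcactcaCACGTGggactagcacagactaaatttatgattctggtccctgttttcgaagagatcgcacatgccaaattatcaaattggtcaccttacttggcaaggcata
Its close homologue PHO12 fell by 0.55 with the term (adjusted p = 0.0383) but was not called with the block (adjusted p = 0.16), and 91.6% of its 31-base words recur elsewhere. The 20 genes of the phosphate regulon had a median of -0.21 in replicates 1 and 2 and 0.00 in replicates 3 and 4. In the fit of 15 libraries PHO5 and PHO12 fell in fab1∆ relative to wild type by 3.52 and 3.93. At PHO84, the high-affinity phosphate transporter, atg18∆ exceeded fab1∆ by 3.96 (adjusted p = 7.57e-06) and vph1∆ by 3.02 (adjusted p = 0.000602).

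The strain difference itself differed between the sets at 45 genes (interaction term in limma, 0.708% of genes). At 33 of them (0.519%) it was more positive and at 12 (0.189%) more negative in replicates 3 and 4. Wild type is represented in replicates 3 and 4 by 1 library, which is assumed to vary like the others. At 28 of the genes called for this interaction, the strain difference had opposite signs in the 2 sets. Only the sign was counted, so genes with almost no change in 1 set are included. DDR2 changed 0.994-fold in replicates 1 and 2 and 4.32-fold in replicates 3 and 4, whereas SHM2 changed 1.93-fold and 0.852-fold. Opposite signs were common among all genes too, as 3786 of the 6357 tested had the same sign in both sets.

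**Figure D4:**
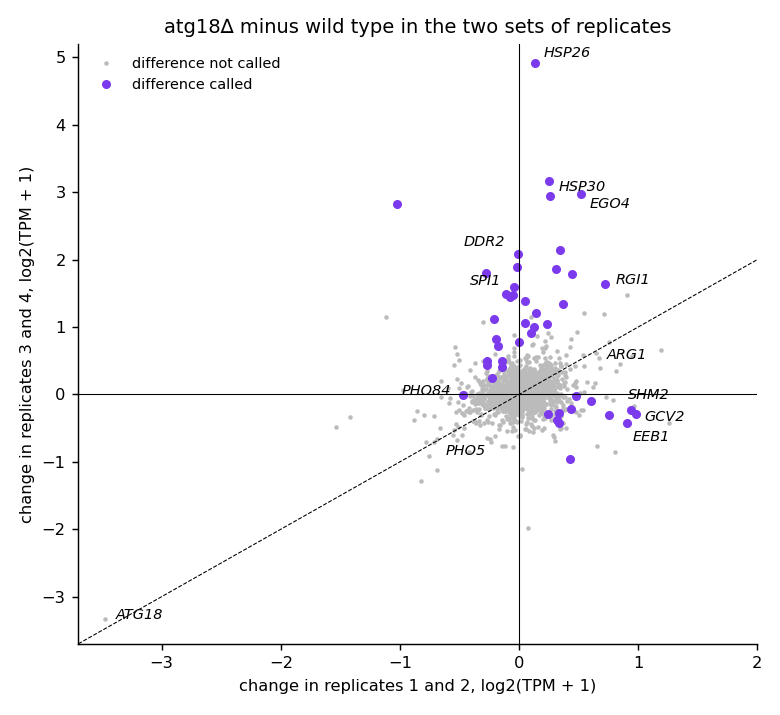
Log2 difference of atg18∆ minus wild type in replicates 1 and 2 against that in replicates 3 and 4. Purple points are the 45 genes whose difference between the sets was called, and the dashed line marks equal change; ARG1 lies near it, and HSP26 lies at 0.13 and 4.92.

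Among the genes with a more positive difference in replicates 3 and 4, HSP26 had the largest value, 4.79, followed by YFR009W-A (3.85), YCL048W-A (2.92) and HSP30 (2.69). YFR009W-A, which has no position in the annotation used, was at 0 to 1.31 TPM in wild type, at 0 and 0.115 TPM in atg18∆ replicates 1 and 2, and at 6.88 and 5.40 TPM in replicates 3 and 4. It passed the filter of 1 TPM only through these last 2 libraries, so its place in this order is not support. Its values also varied within vph1∆, from 5.74 TPM in replicate 1 to 5e-06 TPM in replicate 4. HSP26, a small heat shock chaperone, was at 5.81, 5.45 and 2.56 TPM in wild-type replicates 1, 2 and 4 and at 6.62 and 5.91 TPM in atg18∆ replicates 1 and 2. In atg18∆ replicates 3 and 4 it reached 108 and 106 TPM. The change was 1.11-fold in the first set and 41.8-fold in the second, and the difference between them was 4.79 on the log2 scale (limma interaction, adjusted p = 1.58e-06). HSP30, a membrane regulator of the proton ATPase Pma1, behaved alike, at 3.10, 3.16 and 3.45 TPM in wild type and 3.77, 4.10, 33.8 and 32.7 TPM in atg18∆. DDR2, a classic target of the stress activators Msn2 and Msn4, was at 74.4, 68.5 and 46.3 TPM in wild type and 67.7, 74.4, 199.7 and 200.4 TPM in atg18∆. SPI1, a cell wall protein induced by weak acids, went from 12.9 and 13.4 TPM in atg18∆ replicates 1 and 2 to 46.9 and 46.7 TPM in replicates 3 and 4. The chaperone genes SSA3 and SSA4, the membrane protein gene HSP12, the hydrophilin gene GRE1 and the iron mannoprotein genes FIT2 and FIT3 were also among the 45. So were EGO4, TMA10, the glycolytic gene TDH1 and RGI1. RGI1 was above wild type in both sets, 1.81-fold and 3.75-fold.

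Of 32 general stress response genes, 11 were among the genes with a called interaction, all with a more positive difference in replicates 3 and 4, where 0.519% of all genes were so called. Their median log2 difference was 0.09 in replicates 1 and 2 and 0.60 in replicates 3 and 4. Over all 7 libraries 0 were called by limma and 15 had an unadjusted p under 0.05 (4.85% of all genes did). Free of overlap in the higher direction were 13 (40.6%, against 5.1% of all genes). Because the list was drawn up with earlier results of these data known, this excess is not separate support. SIP18, an osmotic stress hydrophilin, was at 5.67, 5.56 and 4.08 TPM in wild type and 8.16, 9.23, 12.1 and 9.65 TPM in atg18∆, without overlap (limma adjusted p = 0.43). Of the 19 heat shock protein genes 36.8% were above zero over the 7 libraries, against 73.8% of all genes, and the median was -0.03. The interaction was called at 4 of them, each with a more positive difference in replicates 3 and 4. In fab1∆ HSP26 was at 57.5 to 77.7 TPM in all 4 replicates, and in vph1∆ at 5.42 to 6.19 TPM. At FIT2, by contrast, vph1∆ was at 159 TPM in replicates 1 and 2 and at 20.2 and 20.3 TPM in replicates 3 and 4.

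Of the 12 genes with a more negative difference in replicates 3 and 4, SHM2, GCV2, GCV3, EEB1 and ZRT2 are described here, chosen after their values were seen. SHM2, cytosolic serine hydroxymethyltransferase, was at 90.6 and 86.6 TPM in wild-type replicates 1 and 2 and 177 and 166 TPM in the matching atg18∆ replicates. In replicate 4 wild type held 150 TPM, and atg18∆ replicates 3 and 4 held 132 and 124 TPM. The change was thus 1.93-fold in the first set and 0.852-fold in the second, and the difference between them was -1.17 (limma interaction, adjusted p = 0.00062). GCV2, a subunit of the glycine cleavage complex, had the same pattern, at 3.91, 3.80 and 7.19 TPM in wild type and 8.68, 8.48, 5.97 and 5.47 TPM in atg18∆. GCV3 of the same complex and EEB1, an ethyl ester synthase, had interaction terms of -0.69 and -1.33. The zinc transporter gene ZRT2 was at 49.9, 51.8 and 53.5 TPM in wild type and 72.7, 69.8, 53.0 and 52.3 TPM in atg18∆ (interaction -0.50, adjusted p = 0.0209). ZRT1, the high-affinity zinc transporter, was higher in atg18∆ in both sets, 1.78-fold and 1.29-fold, and was called with the term for the sets (log2 difference 0.63, adjusted p = 0.0455) but not with the block (adjusted p = 0.172).

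**Figure D5:**
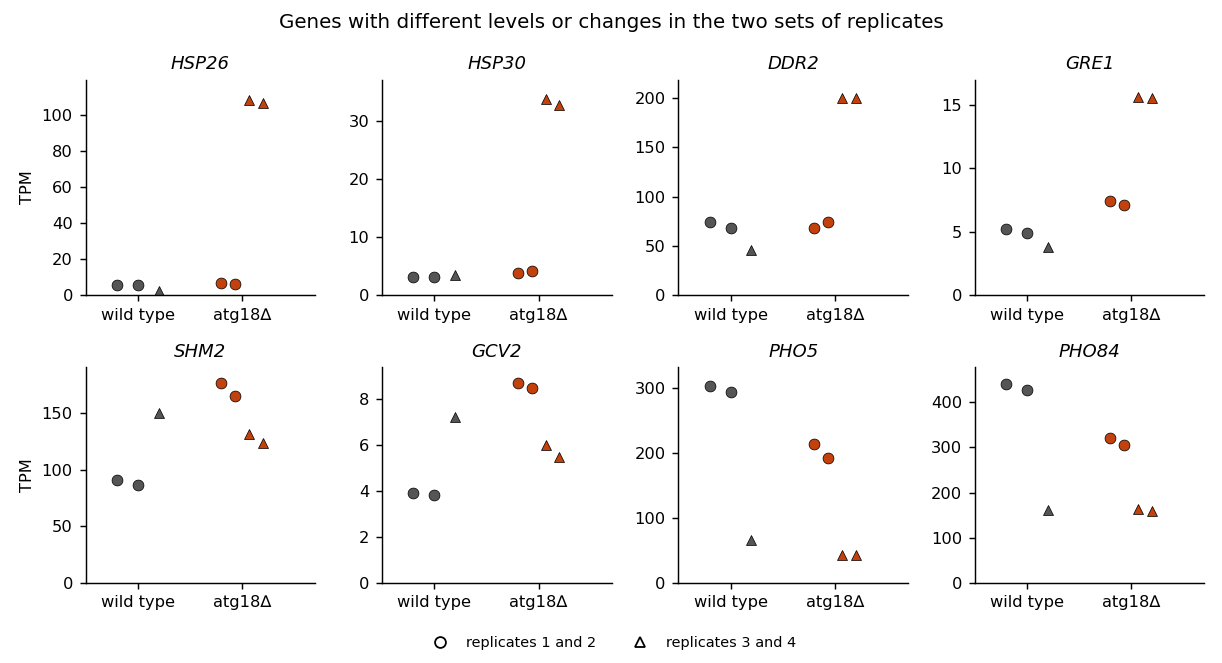
TPM of each library for HSP26, HSP30, DDR2 and GRE1, which were higher in atg18∆ replicates 3 and 4, and for SHM2, GCV2, PHO5 and PHO84. Circles are replicates 1 and 2 and triangles replicates 3 and 4; HSP26 stands at 108 and 106 TPM in the 2 atg18∆ triangles and at 6.62 TPM or less in the other 5 libraries.

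Tested within replicates 1 and 2 alone, 33 genes were called (0.52%), 22 higher (0.347%) and 11 lower (0.173%). Within replicates 3 and 4 alone 182 were called (2.86%), 128 higher (2.01%) and 54 lower (0.847%). ARG1 was called in each, with adjusted p = 0.00997 and 2e-05 in limma, as were PRM5 (0.0219 and 0.00593) and YFL067W (0.028 and 0.000933). In replicates 3 and 4 wild type has 1 library, so that the spread between samples comes from the 2 atg18∆ libraries alone, and these libraries are also part of the comparison of all 7. After quantile normalization 7 genes were called in replicates 3 and 4, and ATG18 (adjusted p = 0.0777), ARG1 (0.202), PRM5 (0.437) and YFL067W (0.301) were not among them. Against the other mutants, in the fit of 15 libraries, atg18∆ differed from fab1∆ at 3016 genes (47.4%), 1084 higher (17.1%) and 1932 lower (30.4%). It differed from vph1∆ at 755 genes (11.9%), 204 higher (3.21%) and 551 lower (8.67%). After median scaling the split was 1938 higher and 1611 lower against fab1∆ and 386 higher and 407 lower against vph1∆. As markers of mating type, the a-factor gene MFA2 was at a mean of 8946 TPM in wild type and 8399 TPM in atg18∆, and the alpha-factor gene MF(ALPHA)1 at 2.66 and 2.39 TPM.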

How the data were processed

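RNA was measured by sequencing of libraries that the labels call polyA RNA, although the protocol describes a directional kit used without polyA selection. Genes of ribosomal RNA held 0.119% to 0.336% of the values in the 7 libraries. The deposited values are TPM per gene, which the authors made with Salmon (version 0.8.1 in the submitters' processing notes) against sacCer3, and each library sums to the same total. Depth cannot be recovered from TPM, so that no counting error is given. Of 6844 identifiers, 6011 were matched to RefSeq R64. Differences were fitted with limma (version 3.58.1, R version 4.3.3) on log2(TPM + 1), with a variance trend and Benjamini-Hochberg adjustment over all genes with a mean of at least 1 TPM. A fold change on this scale understates the change of low genes. The study's own test, sleuth, needs estimates per transcript that were not used here. The p-values measure the spread between cultures of 1 strain each. In the interaction and in the tests within 1 set of replicates, that spread came only from cultures of the same set. Those p-values do not measure how a strain difference varies between sets of cultures.

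The members, gene lists and tests were chosen with earlier results of these data known. Named genes were ATG18 and its neighbours, the arginine genes, 12 genes in each direction without overlap and with at least 10 TPM, and the members of short lists or the 3 smallest p-values of long ones. Of the 12, called genes came first, by log2 difference. The other places went to the smallest p-values among genes that changed in the same direction in both sets of replicates. Agreement of the sets at those genes was thus selected for. Genes discussed for the 2 sets of replicates were chosen after their values were seen. Same-numbered wild-type and atg18∆ libraries deviated together (r = 0.515, 0.256 and 0.462 for numbers 1, 2 and 4), but so did differently numbered libraries of the same set (r = 0.336, 0.357 and 0.541), so that the numbers could not be told apart from the sets, and atg18∆ replicate 3 has no partner. Data for this comparison were also simulated, with 6357 genes. Of the genes changed by 1 on the log2 scale 92% were recovered, and of those changed by 0.5, 65%. In the same run 15 of the 6157 unchanged genes were called (0.244%), and 0 were called in a run without changes. Whether these shares hold for the real libraries was not tested. There, the component that separated the 2 sets of replicates held 60.1% of the variance. Alternatives were other pseudocounts, filters and scalings, array weights, a replicate block, a term for the sets, removal of a gene length trend, and each library left out. No library was left out within replicates 3 and 4, and wild-type replicate 4 was kept in the test of the difference between the sets. 1 gene is not reported here.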

Additional observations from a re-analysis of the deposited data

Results flagged for a closer look

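Among the 4 atg18∆ libraries, 1 library stood far from the other 3 at 4 of the genes named (Dixon's test at the 95% level, which chance passes in about 1 in 20 groups). ATG18 was at 0.0106 TPM in atg18∆ replicate 1 and at 0 in the others. YGL193C was at 36.5 TPM in replicate 3, ATF2 at 17.7 TPM in replicate 2 and VMA3 at 875 TPM in replicate 1.

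The strain difference in replicates 3 and 4 differed from that in replicates 1 and 2 (limma interaction) by 4.79 for HSP26, 2.69 for HSP30, 2.46 for EGO4, 2.10 for DDR2, 2.08 for TDH1 and 1.92 for SPI1. It differed by 1.80 for TMA10, 1.63 for SSA4, 1.60 for HSP12, 1.52 for FIT3, 1.33 for GRE1, 1.01 for FIT2, 1.00 for SSA3, 0.916 for RGI1 and 0.468 for PHO84 on the log2 scale. In the opposite direction it differed by -1.33 for EEB1, -1.27 for GCV2, -1.17 for SHM2, -0.691 for GCV3 and -0.501 for ZRT2. YFR009W-A, which passed the filter only through atg18∆ replicates 3 and 4, differed by 3.85, and YCL048W-A by 2.92. Replicates 3 and 4 hold 1 wild-type library, and differences between the cultures of the 2 sets cannot be told apart from it.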

How the results depend on the processing

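Of the 4 calls, that of ATG18 was kept in the 19 alternatives that tested it, that of ARG1 in 11 of 20, that of YFL067W in 9 of 19 and that of PRM5 in 6 of 20, and all 4 kept their direction in each of these. Against wild type, 3 genes rose and 1 fell. The number that rose was 1 with a pseudocount of 5, and limma gave 0 without a filter, with a mean of at least 10 TPM (where 0 fell, ATG18 not being tested) or with wild-type replicate 3, where 248, 161 and 77 genes were higher at an unadjusted p under 0.05. It was 5 with 15 libraries fitted together, and 21, with 12 that fell, with the term for the sets of replicates. With the replicate block 2 genes rose and 2 fell, PRM5 being lost and PHO5 gained, and no other call changed in this comparison. With any single library left out, 0 to 2 rose and 1 fell. Mean TPM of ATG18 differed by -10.2 to -9.44 with any library left out, where the exact permutation test cannot go below 0.0667 or 0.1.

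Within replicates 1 and 2, where 22 genes rose and 11 fell, the counts were 12 and 6 without a filter, 65 and 39 at a mean of at least 10 TPM, 4 and 2 without a variance trend, and 42 and 40 with the gene length trend removed. Leaving out a library gave 8 to 152 that rose and 6 to 135 that fell. Within replicates 3 and 4, where 128 rose and 54 fell, the counts were 27 and 7 without a filter, 44 and 12 with median scaling, 7 and 0 with quantile normalization (244 lower at an unadjusted p under 0.05), 57 and 14 without a variance trend, and 50 and 6 with the length trend removed. Of the differences between the sets, 33 were positive and 12 negative. Leaving out a library other than wild-type replicate 4 gave 18 to 38 and 4 to 11, and 6 were negative without a variance trend. Wild-type replicate 4 could not be left out there, because it is the 1 wild-type library of its set.

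Against fab1∆ (1084 higher, 1932 lower), the higher genes numbered 1938 with median scaling, 2261 with quantile normalization, 1895 with the length trend removed and 695 to 1380 with a library left out, and the lower genes 1284 at a mean of at least 10 TPM. Against vph1∆ (204 higher), they numbered 386, 444 and 592 under the same 3 scalings and 323 with the replicate block. The cause of these shifts was not tested. Leaving out libraries with the term for the sets was chosen after seeing the data. Depth is unknown for TPM, and genes at a few TPM are the least certain.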
